A study of Mus musculus with 9 samples.

Results

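Of the genes in the tables of sorted and cultured mouse Müller glia, 9 encode the TREM2 receptor, its signalling adaptors and the enzymes and inhibitors that act with them: Trem2, Tyrobp, Hcst, Syk, Plcg2, Vav1, Inpp5d, Ptpn6 and Cd33. They were chosen by gene symbol, with earlier results of these data known. The table of sorted cells held 16367 genes and the table of cultures 17035 genes, and all 9 were in both. RNA was sequenced from cells prepared as Müller glia, the radial glia that span the retina. Wild-type mice with ocular hypertension (OHT) had received 1.2 µL of silicone oil in the anterior chamber of both eyes, which raises eye pressure (3 libraries). Wild-type sham mice had the corneal incision without oil (3 libraries). Cells of both groups were taken from papain-dissociated retinas, 4 to a pool, by magnetic beads and an antibody to GLAST, a glutamate transporter that astrocytes also carry. The age and strain of these mice and the time after injection are not stated in the labels. Untreated primary cultures (3 libraries) came from retinas of C57BL/6J pups between postnatal days 8 and 10 and had been passaged on gelatin in serum-containing medium.

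TREM2 is a lipid-sensing and lipoprotein-sensing receptor of microglia and other macrophages, and its short intracellular part carries no signalling motif. It pairs in the membrane with TYROBP (DAP12), whose activation motif is phosphorylated by Src family kinases and then binds the kinase SYK, while HCST (DAP10) couples the same receptor complexes to phosphoinositide 3-kinase. SYK acts on the phospholipase PLCG2 and the exchange factor VAV1, and the lipid phosphatase SHIP1 (Inpp5d) and the tyrosine phosphatase SHP-1 (Ptpn6) restrain the route. The sialic acid receptor CD33 is counted here with the inhibitors, and its action in mouse cells was not examined. In retina and brain, most of these genes are known as genes of microglia, and TREM2 and TYROBP are known for the response of these cells to damaged neurons.

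The sequences before the transcription starts are shown because these genes are expressed together in myeloid cells, whose main factor PU.1 binds sites with the core GAGGAA. The 250 bases before the start were taken from RefSeq (GRCm38.p6, the mouse build of that table) for the 8 members that had an entry, with 9 windows in all since Syk had 2. The motifs GAGGAA and AGGAAGT, which overlap in GAGGAAGT, were searched on both strands. At least 1 of them was in the windows of 7 of the 8 members, and in 27.3% of the 32851 windows of all genes. GAGGAA was found in 5 members (23.3% of all windows) and AGGAAGT in 4 (7.69% of all windows). Plcg2 held neither. A match is a description of the letters, not a binding site. Of the windows with a match close to the start, those of the receptor, an adaptor, the exchange factor and the lipid phosphatase are printed. They run 5′ to 3′ on the strand of the gene, with the motif or its reverse complement in capitals. Trem2 is at chr17:48346151-48346400 (plus strand), Hcst at chr7:30419855-30420104 (minus strand), Vav1 at chr17:57278850-57279099 (plus strand) and Inpp5d at chr1:87620062-87620311 (plus strand).
Trem2: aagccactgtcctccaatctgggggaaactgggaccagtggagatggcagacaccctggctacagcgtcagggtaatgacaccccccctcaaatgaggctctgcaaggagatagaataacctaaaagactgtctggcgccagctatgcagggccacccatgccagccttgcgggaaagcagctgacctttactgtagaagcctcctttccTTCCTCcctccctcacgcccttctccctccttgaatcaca
Hcst: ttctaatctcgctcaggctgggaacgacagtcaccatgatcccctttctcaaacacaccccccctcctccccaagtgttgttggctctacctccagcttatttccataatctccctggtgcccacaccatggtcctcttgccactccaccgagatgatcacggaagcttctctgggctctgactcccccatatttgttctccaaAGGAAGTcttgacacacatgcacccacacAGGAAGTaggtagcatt
Vav1: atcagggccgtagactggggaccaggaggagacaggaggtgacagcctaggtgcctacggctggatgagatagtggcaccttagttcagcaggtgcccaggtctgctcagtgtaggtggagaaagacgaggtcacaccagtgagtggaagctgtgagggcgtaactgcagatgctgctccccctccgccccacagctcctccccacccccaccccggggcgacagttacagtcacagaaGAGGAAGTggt
Inpp5d: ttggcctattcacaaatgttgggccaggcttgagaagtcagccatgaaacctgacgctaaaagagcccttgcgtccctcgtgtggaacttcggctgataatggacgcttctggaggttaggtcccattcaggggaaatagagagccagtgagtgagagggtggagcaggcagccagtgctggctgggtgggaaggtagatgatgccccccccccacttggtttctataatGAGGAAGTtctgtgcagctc
In Vav1 and Inpp5d both motifs overlapped in 1 run of letters just before the start, Hcst held AGGAAGT at 2 places, and Trem2 held GAGGAA on the opposite strand.

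Depth ranged from 37.8 to 53.6 M reads (M, 1e6) in the sorted libraries and from 66.3 to 76.7 M in the cultures, with the OHT libraries (49.4 ± 3.60 M, SD, n = 3) deeper than the sham libraries (41.6 ± 3.44 M, n = 3). Markers did not show the sorted fraction to be Müller glia alone. The microglia reference list, with 17 of its 18 genes in the table, made up 36022 to 56998 reads per 1e6 (ppm) of the sham libraries and 47242 to 63128 ppm of the OHT libraries. The Müller glia list of 12 genes made up 3375 to 8081 and 1823 to 3893 ppm, and the rod list of 13 genes 2958 to 27536 and 1056 to 3670 ppm. In the cultures the microglia list was at 109 to 170 ppm and the Müller glia list at 2814 to 3725 ppm, of which Vim, an intermediate filament gene of many cultured cells, made up 2757 ppm on average. Rlbp1 (2.24 ppm), Aqp4 (2.57 ppm) and Glul (36.3 ppm), which define Müller glia, were low there. In such bulk samples, fewer cells of a type and less RNA per cell cannot be told apart. Nothing in the labels says that libraries of a group came from separate sorts or cultures, so p-values measure the spread between these libraries.

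Trem2, Tyrobp and Hcst, the receptor and its adaptors, had their lowest OHT library above their highest sham library, while the kinase, the effectors and the inhibitors overlapped between the groups. None of the 9 differences passed the test that adjusts over all genes. Trem2 had normalised read counts of 44168, 32846 and 41210 in sham replicates 1, 2 and 3 and of 116366, 61943 and 71300 in OHT replicates 1, 2 and 3. The lowest OHT library was 1.40 times the highest sham library, and the OHT values were the more scattered in this scaling. In ppm of the library total, Trem2 averaged 978 ± 148 in sham and 1687 ± 252 in OHT (SD, n = 3 each). The group means of the normalised read counts were 39408 ± 5872 in sham and 83203 ± 29099 in OHT (SD, n = 3 each), a 2.11-fold difference. On the log2(value + 1) scale of the test the difference was 1.03 (SE 0.37, 95% interval 0.23 to 1.84, limma adjusted p = 0.351).

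Tyrobp, the adaptor that carries the activation motif, was at 33401, 15553 and 25408 in sham and 104996, 49702 and 77196 in OHT. Replicate 2 was the lowest of its group in both, and the lowest OHT library was 1.49 times the highest sham library. The mean was 3.12-fold higher in OHT, at 77298 ± 27647 against 24787 ± 8940 (SD, n = 3 each). This was a log2 difference of 1.64 (SE 0.41, 95% interval 0.75 to 2.54, limma adjusted p = 0.332).

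Hcst, the adaptor to phosphoinositide 3-kinase, was at 402.9, 192.8 and 372.2 in sham and 2747, 761.4 and 971.3 in OHT. OHT replicate 1 stood well above the other two, and the lowest OHT value was 1.89 times the highest sham value. The mean was 323 ± 113 in sham and 1493 ± 1091 in OHT (SD, n = 3 each), with a log2 difference of 2.04 (SE 0.60, 95% interval 0.72 to 3.36) and a limma adjusted p of 0.332. Hcst lies tail to tail with Tyrobp on the opposite strand, with 126 bases between their annotated ends (GENCODE M21), and whether the counting used strand is not stated in the labels. Hcst had 1.21%, 1.24% and 1.46% of the value of Tyrobp in the sham libraries and 2.62%, 1.53% and 1.26% in the OHT libraries.

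**Figure D1:**
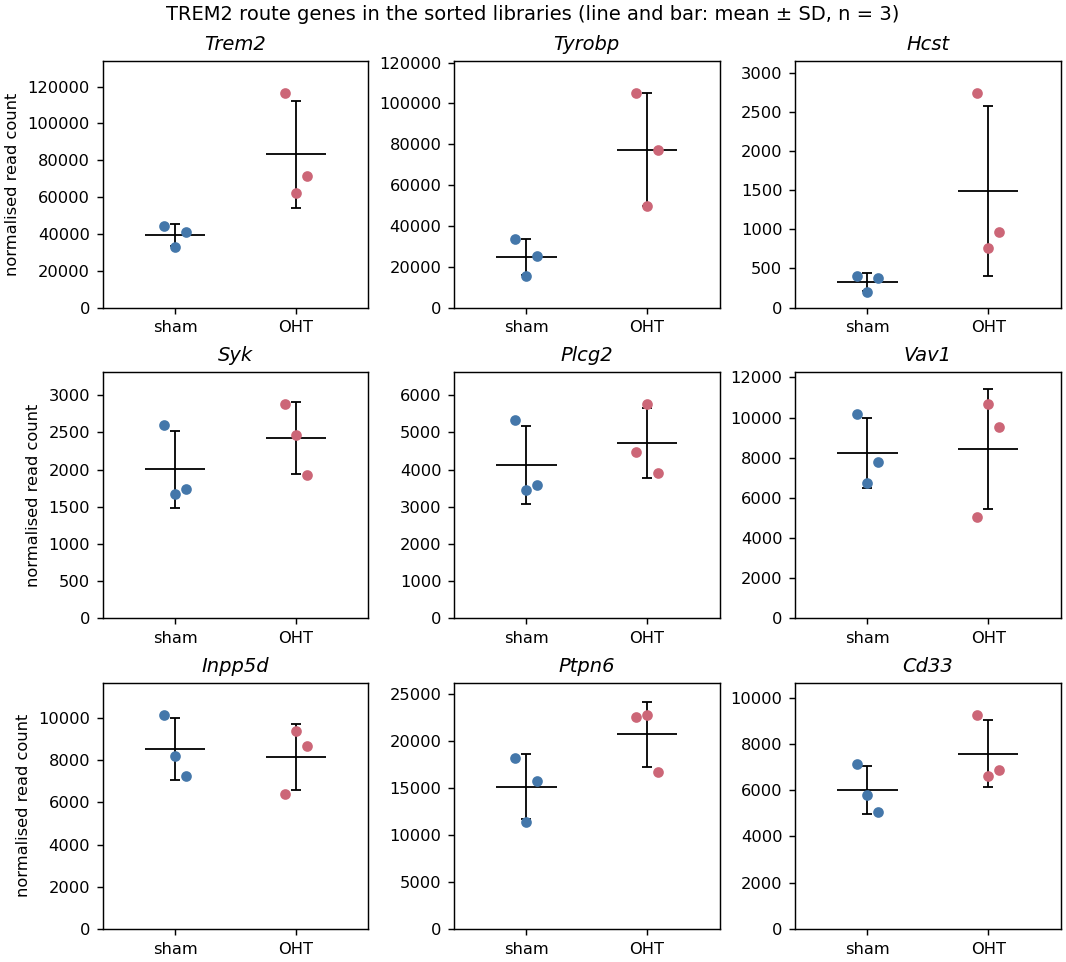
Normalised read counts of the 9 genes on linear axes from 0, with 1 point per library for sham and OHT, a line at the mean of each group and bars of ± SD (n = 3 libraries each). In Trem2, Tyrobp and Hcst the OHT points all lie above the sham points, and in the other 6 genes the groups overlap.

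An exact two-sided permutation test over the libraries gave p = 0.1 for each of Trem2, Tyrobp and Hcst, the smallest that 3 against 3 can give. Among all 14403 genes tested, 9.26% had all OHT libraries above all sham libraries and 9.18% had them all below, beside 3 and 0 of the 9 members. At an unadjusted limma p under 0.05, 5.37% of all genes were higher and 6.3% lower in OHT, beside 3 and 0 members. After Benjamini-Hochberg adjustment limma called 0% of all genes in either direction, with a smallest adjusted p of 0.332, and edgeR's quasi-likelihood test also called 0%. DESeq2 called 0.389% of genes higher in OHT (54 genes) and 1.41% lower, with no member among the lower ones. The higher genes included Tyrobp (log2 difference 1.64, DESeq2 adjusted p = 0.0202) and Hcst (2.21, DESeq2 adjusted p = 0.0228). Trem2 was not among them (1.08, DESeq2 adjusted p = 0.135). In simulated data with 200 genes changed, limma recovered 0% at a log2 change of 1 and 15% at 2. At 2, DESeq2 recovered 38%, and 43 of its 119 calls were on unchanged genes. Of the 9 log2 differences, 7 were above 0 with a median of 0.34, against a median of -0.12 over all genes tested, of which 45.2% were above 0.

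**Figure D2:**
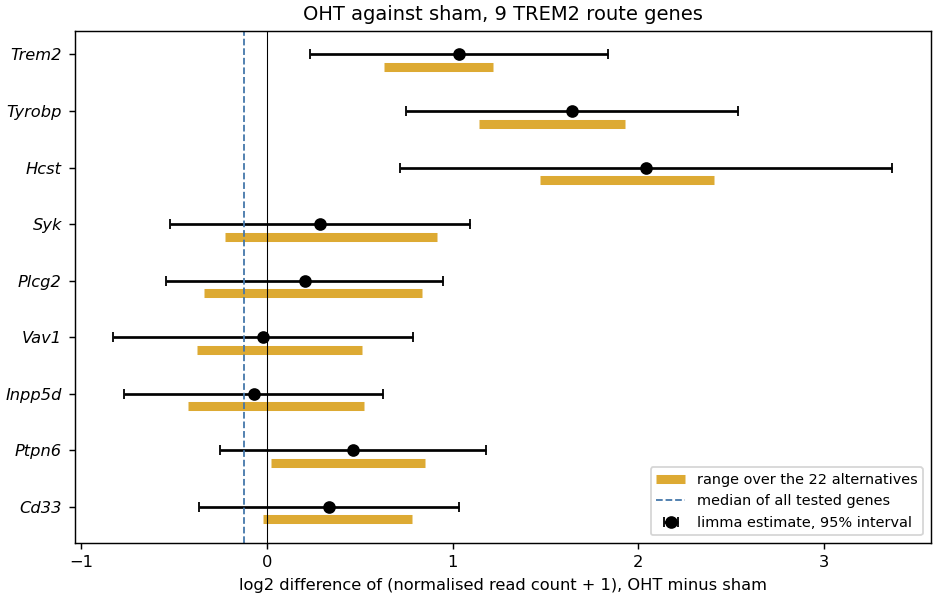
Log2 differences of OHT minus sham for the 9 genes, as points with 95% intervals from limma, with the range over 22 alternative analyses as an orange bar and the median of all tested genes as a dashed line. The intervals of Trem2, Tyrobp and Hcst lie above 0, and the other 6 span 0.

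Short transcripts tended to be higher in OHT across the whole table, and Hcst, Tyrobp and Trem2 are the members with the shortest transcripts (442, 564 and 1088 bases in GENCODE M21). The median log2 difference was 0.75 over 899 genes under 1000 bases, 30.8% of which were higher in every OHT library than in any sham library. It was 0.13 over 2852 genes of 1000 to 2000 bases (15.0% higher without overlap). Genes of 2000 to 4000 bases had a median of -0.20 (7.05%) and longer genes a median of -0.31 (4.37%). With each library corrected for GC content and length, an alternative added after seeing the data, the log2 differences were 1.02 for Trem2, 1.21 for Tyrobp and 1.64 for Hcst, each with a limma adjusted p of 0.351. The members below them moved closer to Trem2, with Syk at 0.92, Ptpn6 at 0.85, Plcg2 at 0.83, Cd33 at 0.55, Vav1 at 0.52 and Inpp5d at 0.52 (limma adjusted p of 0.378 or more). The fit also brings every library to the same mean log2 level over the genes with a length, a shift shared by every gene. The median of all genes then stood at 0.17, against -0.12 in the deposited scaling. The gap between the receptor with its adaptors and the other members was narrower than in the deposited scaling. With length alone corrected, also added after seeing the data, Trem2 was at 0.82, Tyrobp at 1.14 and Hcst at 1.47. In that fit Cd33 was at 0.78, Syk at 0.74, Ptpn6 at 0.73 and Plcg2 at 0.67, close to Trem2. The corrected values of Cd33 rest on a transcript of 5728 bases, while its shortest principal transcript has 1791 bases. Vav1 was at 0.43 and Inpp5d at 0.38. The part of transcript length in the uncorrected differences was not tested further.

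**Figure D3:**
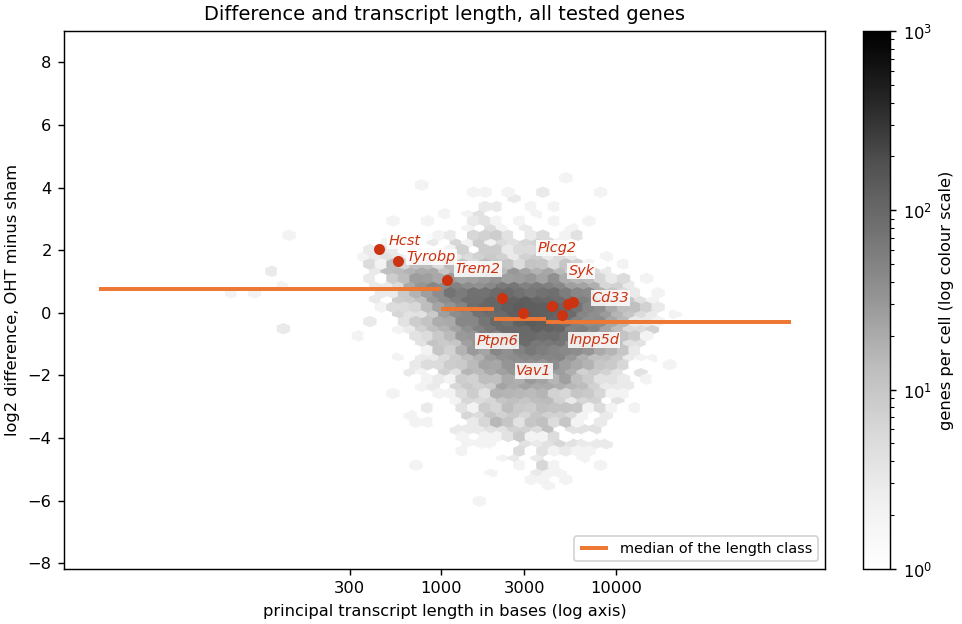
Log2 difference of OHT minus sham against the length of the principal transcript in bases (log axis) for all tested genes with a length, shaded by the number of genes, with the 9 members as red points and the median of 4 length classes as lines. The medians run from 0.75 in the shortest class to -0.31 in the longest, and Hcst, Tyrobp and Trem2 sit at the short end above their class medians.

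In the deposited scaling the kinase and the effectors below it overlapped between the groups. Syk, the kinase that binds the phosphorylated adaptor, was at 2600, 1665 and 1738 in sham and 2882, 2465 and 1925 in OHT. Sham replicate 1 lay above 2 of the 3 OHT libraries. The log2 difference was 0.29 (95% interval -0.52 to 1.10, limma adjusted p = 0.746), and 0.74 with length alone corrected. Plcg2, the phospholipase that makes the second messengers for calcium release, was at 5343, 3438 and 3594 in sham and 4480, 5764 and 3917 in OHT. The ranges were nearly the same, and the log2 difference was 0.21 (95% interval -0.54 to 0.95, limma adjusted p = 0.806).

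Vav1, a guanine nucleotide exchange factor, was at 10168, 6752 and 7769 in sham and 5032, 10678 and 9552 in OHT. OHT replicate 1 held the lowest value of all 6 libraries and OHT replicate 2 the highest. The log2 difference of -0.02 (95% interval -0.82 to 0.79, limma adjusted p = 0.986) became 0.32 without OHT replicate 1. That library was the highest for Trem2, Tyrobp and Hcst in the deposited scaling. In ppm of the library total, OHT replicate 3 was the highest for Trem2 and Tyrobp. The interval of Syk includes 1.03, the difference of Trem2, and those of Plcg2 and Vav1 end at 0.95 and 0.79. Whether the effectors differed less than the adaptors was not tested.

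The inhibitors also overlapped between the groups. Inpp5d, which removes the phosphate that phosphoinositide 3-kinase adds, was at 10150, 8182 and 7231 in sham and 6402, 9354 and 8678 in OHT. OHT replicate 1 was again the lowest library, and the log2 difference was -0.07 (95% interval -0.77 to 0.63, limma adjusted p = 0.934). Ptpn6, which removes phosphate from tyrosines of activated receptors and kinases, was at 18250, 11415 and 15821 in sham and 22622, 22844 and 16770 in OHT. Of the 3 OHT libraries 2 lay above all sham libraries and the third fell between sham replicates 1 and 3. Its log2 difference was 0.46 (95% interval -0.25 to 1.18, limma adjusted p = 0.564). Exons of Ptpn6 overlap an antisense gene, Gm20531, in GENCODE M21, and reads of the pair cannot be told apart without strand.

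Cd33, a sialic acid receptor, was at 7132, 5804 and 5076 in sham and 9269, 6625 and 6869 in OHT. Sham replicate 1 lay above 2 of the 3 OHT libraries. The log2 difference was 0.34 (95% interval -0.36 to 1.03, limma adjusted p = 0.666).

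Since Trem2 and Tyrobp are microglial genes and the microglia list was among the most abundant, each member was also set against that list within each library. The geometric mean of the list on the log2 scale was 15.65 ± 0.39 in sham and 15.92 ± 0.61 in OHT (SD, n = 3 each), so the list itself differed by less than its spread. Relative to it, Tyrobp was at -1.07, -1.54 and -0.75 on the log2 scale in sham replicates 1, 2 and 3 and at 0.20, -0.41 and 0.97 in OHT. The groups did not overlap, with a difference of 1.38 (exact permutation p = 0.1, two-sided). Hcst also kept apart, between -7.87 and -6.84 in sham and between -6.43 and -5.05 in OHT, with a difference of 1.77 (exact permutation p = 0.1, two-sided). Trem2 relative to the list was at -0.67, -0.46 and -0.05 in sham and at 0.35, -0.09 and 0.86 in OHT. OHT replicate 2 lay just below sham replicate 3, and the difference was 0.77 (exact permutation p = 0.2, two-sided). Set against Csf1r alone it was 1.24 (exact permutation p = 0.1, two-sided), without overlap, and against the summed list 0.43 (exact permutation p = 0.2, two-sided). The other 6 members differed by -0.34 to 0.20, each with overlap and an exact two-sided permutation p between 0.7 and 1. Of the list, C1qc and Spi1 were low only in OHT replicate 3, which raises every ratio in that library. Without these genes, a choice made after seeing the data, the difference was 0.66 for Trem2, 1.27 for Tyrobp and 1.67 for Hcst.

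**Figure D4:**
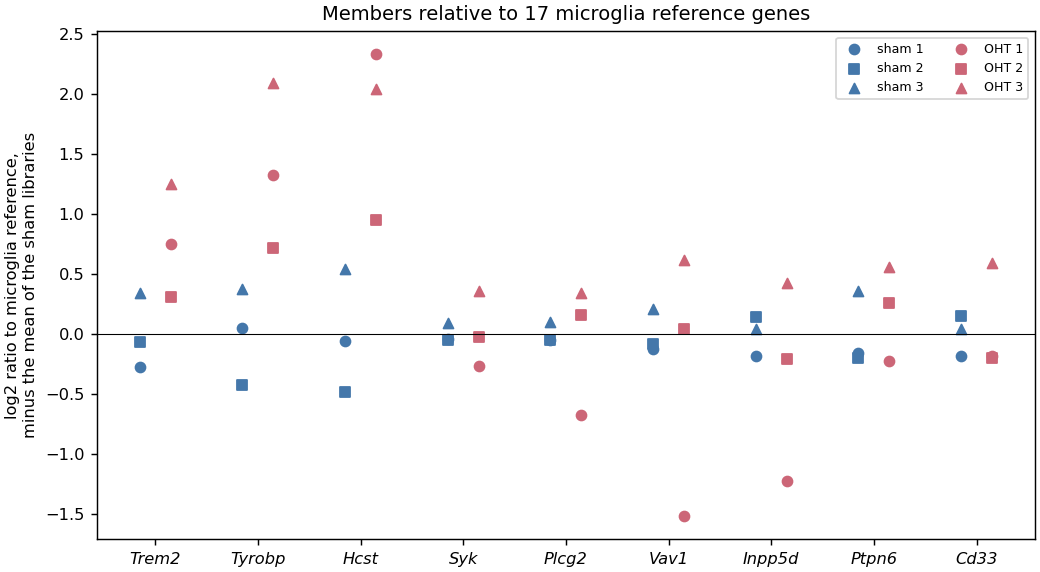
Log2 ratio of each member to the geometric mean of the microglia reference list in the same library, drawn minus the mean of the sham libraries for that gene, with 1 symbol per library (blue, sham, and red, OHT). Tyrobp and Hcst are separated between the groups, Trem2 overlaps by 1 library, and the remaining members overlap.

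Without correction for length, the ratio of the receptor to its adaptor was lower in OHT. Trem2 had 1.32, 2.11 and 1.62 times the value of Tyrobp in the sham libraries and 1.11, 1.25 and 0.924 times in the OHT libraries. The log2 difference of the ratio was -0.61 without overlap (exact permutation p = 0.1, two-sided, and 0.25 after Benjamini-Hochberg adjustment over 5 ratios). Cd33 had 16.1%, 17.7% and 12.3% of the value of Trem2 in sham and 7.97%, 10.7% and 9.63% in OHT, again without overlap (log2 difference -0.70, exact permutation p = 0.1, two-sided, adjusted 0.25). The 3 remaining ratios, of Hcst to Tyrobp, Inpp5d to Syk and Ptpn6 to Syk, overlapped, with log2 differences of 0.40, -0.36 and 0.18. Without OHT replicate 1 the first was 0.093 and the second -0.058. In both ratios without overlap the gene with the shorter transcript had the larger value relative to its partner in OHT. In the fit with length alone corrected, the log2 differences were 0.78 for Cd33, 0.82 for Trem2 and 1.14 for Tyrobp. Cd33 and Trem2 were then close, and Trem2 stayed below Tyrobp. Ratios of the corrected values were not tested.

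The wider pathway was read through lists of other genes, none of which passed limma's adjusted threshold (adjusted p of 0.332 or more). Among 12 tested receptors that also signal through TYROBP or HCST, 4 were higher in every OHT library than in any sham library and none was lower, beside 9.26% and 9.18% of all genes. Their median log2 difference of 2.54 rests on low genes, since 4 of the 12 had a sham library at 0. Klrk1, next to the median at 2.27, had a lower mean in OHT (35.2 ± 23.6) than in sham (89.6 ± 155), while Siglech, the highest of the list, was at 0.44. The summed list overlapped between the groups, at 473 to 1095 ppm in sham and 702 to 1122 ppm in OHT. Cd300lb averaged 209 ± 175 across sham and 1075 ± 453 across OHT (log2 difference 2.93), Cd300ld at 691 ± 483 and 1914 ± 244 (1.68) and Pilrb2 at 142 ± 119 and 773 ± 652 (2.82; SD, n = 3 each). Clec5a, a lectin receptor that pairs with TYROBP and is named here after its values were seen, was at 6857 ± 1445 and 10602 ± 2193 (log2 difference 0.63). Most of these receptors are known from macrophages and other myeloid cells, and the level of Pilrb2 is uncertain because the gene has close paralogs.

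Of 4 genes for TREM2 ligands and sheddases, 1 was higher without overlap: Adam17, the protease that sheds the TREM2 ectodomain, with 4217 ± 540 across sham and 5668 ± 219 across OHT (log2 difference 0.43, limma adjusted p = 0.566). Of 6 Src family kinases, Fgr, a myeloid kinase, was higher without overlap (735 ± 348 and 1447 ± 220, log2 difference 1.07) and Yes1, a widely expressed one, was lower (592 ± 193 and 109 ± 111, log2 difference -2.87). None of 22 genes for adaptors, lipid kinases and exchange factors after SYK separated the groups in either direction, and their median log2 difference was 0.24. Beside the counts in these lists, 9.26% of all genes were higher and 9.18% lower without overlap.

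Several other genes listed as inhibitory receptors were higher in OHT. Of 19 genes in the list of other inhibitory receptors and phosphatases, 5 were higher without overlap and none lower (all genes, 9.26% and 9.18%), with a median log2 difference of 0.47. Lilrb4b, an immunoglobulin-like inhibitory receptor of myeloid cells, averaged 4502 ± 3115 across sham and 11906 ± 2411 across OHT (log2 difference 1.59). Clec12a, an inhibitory lectin receptor, was at 931 ± 968 and 4084 ± 2322 (log2 difference 2.57), and Cd22, a sialic acid receptor like Cd33, at 800 ± 635 and 2370 ± 836 (1.95). The other two, Lilrb4a and Pilra, were named after their values were seen and had log2 differences of 1.47 and 0.85. Lilrb4a and Lilrb4b are near-identical genes, and reads may be split between them.

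The MS4A cluster, membrane proteins whose human locus is linked to soluble TREM2, had 6 of 7 genes higher in every OHT library than in any sham library (9.26% of all genes) and a median log2 difference of 1.495. Ms4a7, a macrophage member, was at 4891, 4595 and 22079 in the sham libraries and 96975, 38427 and 35070 in the OHT libraries (log2 difference 2.68, limma adjusted p = 0.332, DESeq2 adjusted p = 0.0121). Sham replicate 3 was far above the other sham libraries. Ms4a6c was at 3702 ± 1919 and 12721 ± 5288 (log2 difference 1.84, DESeq2 adjusted p = 0.0256) and Ms4a4c at 767 ± 494 and 2800 ± 2028 (1.82; SD, n = 3 each). The members of this cluster are similar in sequence, and reads shared between them were not examined.

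Markers of other immune cells give the setting of these values, and their part in them was not tested. Of the 17 microglia reference genes, 5 were higher without overlap in OHT, beside 9.26% of all genes. They were Aif1, C1qb, Ctss and, named after their values were seen, C1qa and Ptprc. The whole list had a median log2 difference of 0.16. None of 9 markers of monocytes and border macrophages separated the groups (all genes, 9.26% higher and 9.18% lower). Their sum was at 429 to 574 ppm in sham and 295 to 982 ppm in OHT. The T cell list was at 5.16 to 15.4 and 1.91 to 17.02 ppm and the NK cell list, a cell type known for Tyrobp and Hcst, at 0 to 4.90 and 0 to 2.16 ppm, with Ncr1 and Klre1 absent from the sorted table. The neutrophil list was at 160 to 269 and 170 to 204 ppm, with 5 of its 8 genes, S100a9 and Ly6g included, absent from the sorted table. Csf3r carried that sum, at 8119 ± 2065 in sham and 8382 ± 1859 in OHT. The other 2 genes, both low, were higher in every OHT library (9.26% of all genes). Mmp8, a neutrophil collagenase, was at 0, 8.30 and 67.9 in sham and 1144, 163 and 173 in OHT (limma adjusted p = 0.332, DESeq2 adjusted p = 0.0297), and S100a8, named after its values were seen, was at 0.957 ± 1.66 and 21.98 ± 9.06. None of the rod genes was higher in OHT, and their median log2 difference was -2.28. With the rod list as a covariate the log2 differences were 0.89 for Trem2, 1.27 for Tyrobp and 1.69 for Hcst, and their limma adjusted p was 0.996.

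Across the 6 sorted libraries Trem2 and Hcst had a Pearson r of 0.997 on the log2 scale and each had an r of 0.97 with Tyrobp. The r of Trem2 was 0.84 with Cd33, 0.77 with Ptpn6, 0.68 with Syk, 0.33 with Plcg2, -0.34 with Vav1 and -0.43 with Inpp5d. Points in these correlations share the difference between the groups and the depth of each library, and they are given as descriptions without a test. Of 11475 genes compared with Trem2, 9.13% had an r over 0.9, and the closest 5 were Ppt1, a lysosomal thioesterase, Tmed9, Hcst, Atp6v1f, a subunit of the lysosomal proton pump, and Rpl4. For Tyrobp 7.02% had an r over 0.9, and the closest 5 were Rplp1, Swi5, Atox1, Fcer1g, an adaptor with the same kind of activation motif, and Anapc11. Rpl4 and Rplp1 encode ribosomal proteins.

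Levels of different genes were compared per kilobase of principal transcript. In sham, Tyrobp (1092 ± 408 ppm per kb) and Trem2 (899 ± 136) were the highest members and did not differ beyond their spread. Ptpn6 (170 ppm per kb) and Vav1 (69.1) followed, then Inpp5d (43.1), Cd33 (26.2), Plcg2 (23.9) and Hcst (18.1), and Syk was the lowest at 9.30 ppm per kb. In OHT, Tyrobp was at 2817 ± 813 and Trem2 at 1550 ± 232 ppm per kb (SD, n = 3 each), and no library of Tyrobp was below any of Trem2. Hcst stood next to Vav1 there, at 63.9 against 64.3 ppm per kb, and Syk was again the lowest at 9.36. Cd33 depends on the transcript used: with its shortest principal transcript of 1791 bases it would be at 83.6 ppm per kb in sham and 88.0 in OHT.

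**Figure D5:**
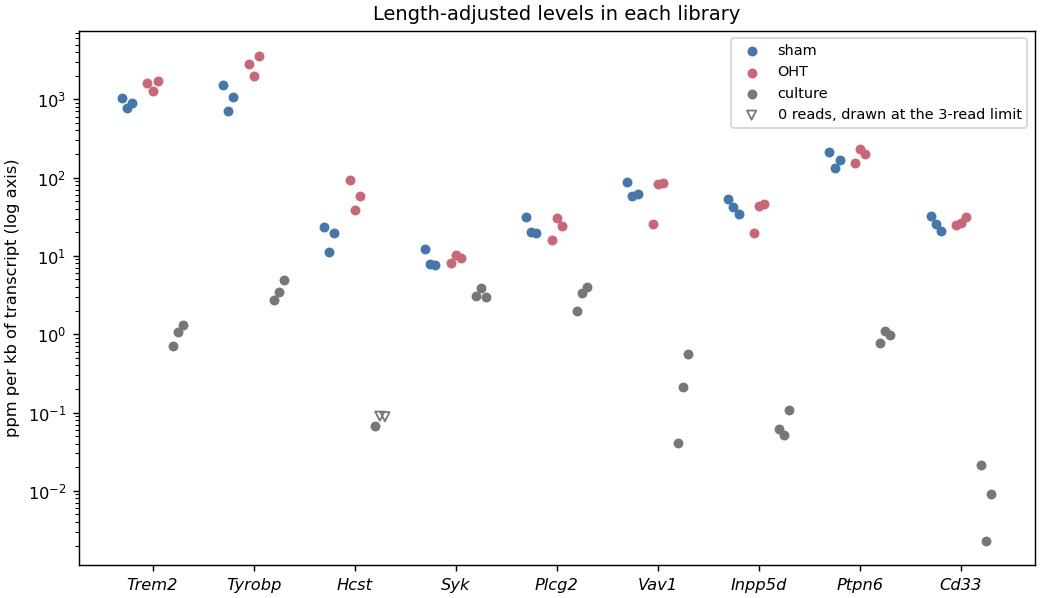
Level of the 9 genes in ppm per kilobase of transcript on a log axis, with libraries of sham, OHT and the primary cultures as points and, for Hcst, open triangles at the limit of 3 reads in cultures with 0 reads. Tyrobp and Trem2 lead in the sorted libraries, and in the cultures the highest mean, that of Tyrobp, is 3.70 ppm per kb.

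In the primary cultures most of the route was at low levels. The tables of sorted cells and cultures were normalized separately, so levels set across them are in ppm of each library's total, with no test. Trem2 was at 1.12 ± 0.333 ppm (SD, n = 3) in the cultures against 978 ± 148 ppm in sham, and Tyrobp at 2.08 ± 0.636 against 616 ± 230 ppm. The lowest sham library was 583 times the highest culture for Trem2 and 142 times for Tyrobp. Ptpn6 was at 2.12 ppm, Vav1 at 0.803 ppm and Inpp5d at 0.362 ppm, and their lowest sham library was 118, 104 and 318 times the highest culture. Hcst had 2 reads in culture replicate 1 and 0 in the other two, where a count of 0 allows up to 3 reads, and Cd33 had 8, 1 and 4 reads in replicates 1, 2 and 3. Vav1 had 8, 48 and 127 reads and so varied widely between cultures.

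Syk and Plcg2 were the exceptions. Syk was at 17.97 ± 2.78 ppm in the cultures and 49.9 ± 14.4 ppm in sham (SD, n = 3 each), a ratio of 2.78. Plcg2 was at 13.4 ± 4.45 ppm in the cultures and 103 ± 29.4 ppm in sham, a ratio of 7.69. No culture reached the lowest sham library for either gene. Both are known outside myeloid cells as well, and the microglia reference list in the same cultures was at 109 to 170 ppm, against at least 36022 ppm in the sorted libraries. Per kilobase the order in the cultures was Tyrobp (3.70 ppm per kb), Syk (3.35) and Plcg2 (3.11), then Trem2 (1.03) and Ptpn6 (0.954), so that Syk stood above Trem2 there and below it in every sorted group. The ratio of Trem2 to Tyrobp was 0.505, 0.588 and 0.516 in cultures 1, 2 and 3, from few reads.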

How the data were processed

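The data are 9 libraries of 3 groups, grouped by the labels. The deposited signal is 1 normalised value per gene and library. Per the submitters' processing notes, bcl2fastq 2.20, Trim Galore 0.6.6, FastQC 0.11.9, STAR 2.7.1a and the build mm39 were used, while for the counting program, the annotation and the normalization nothing is given in the sources used here. The deposited columns behave as gene counts scaled by 1 library factor: dividing by its smallest step gave whole reads for 100% of values (tolerance 0.05 reads). In culture replicate 3 that step is too close to 1 for an independent check. Normalised counts are not divided by gene length.

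OHT was compared with sham by limma 3.58.1 (lmFit and eBayes with trend, R 4.3.3) on log2(value + 1), which understates changes of low genes, in genes with a mean of at least 10. This kept 14403 genes and all 9 members. Benjamini-Hochberg adjustment ran over all of them, with a threshold of 0.05. edgeR 4.0.16 (quasi-likelihood) and DESeq2 1.42.0 were run on the recovered reads as alternatives. The others were pseudocounts, filters, scalings, array weights, covariates, a replicate block, leaving out each library and, added after seeing the data, corrections for GC content and length. These corrections also bring every library to the same mean log2 level, so they rescale the libraries as well. Exact permutation tests used Python 3.11.15 with scipy 1.17.1. The tests were tried on simulated data.

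Replicates differed by more than sampling noise (chi-square per gene 51.2 to 818). The 95% intervals are limma's and rest on the spread between libraries, while read floors cover counting error only. In the sorted libraries 3 reads are 0.0560 to 0.0793 ppm. Transcript lengths are those of GENCODE M21 (GRCm38), whose build differs from mm39, and the promoter windows are from RefSeq. The named genes were all members and, from each list, up to 3 genes per direction with the largest log2 difference among those whose groups did not overlap and whose mean was at least 100. For likeness, the 5 genes with the highest Pearson r to Trem2 and to Tyrobp were named. The members and lists were chosen with earlier results of these data known.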

Additional observations from a re-analysis of the deposited data

How the results depend on the processing

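Trem2, Tyrobp and Hcst were higher in OHT under all 22 alternatives, with log2 differences of 0.63 to 1.22, 1.14 to 1.93 and 1.47 to 2.41, and their unadjusted p was under 0.05 in 19, 21 and 21 of them. Tyrobp (1.64) and Hcst (2.21) passed the adjusted threshold with DESeq2 alone, where 2 members and 250 genes passed. Limma called 12 genes without sham replicate 1, 7 without sham replicate 3, 1 with the microglia list as a covariate and 1 with GC and length corrected and the replicate block, with 0 to 12 over the fits that left out 1 library each. The replicate block alone called 2 genes and no member (adjusted p of Tyrobp 0.0828). Same-numbered libraries had deviations correlated at 0.0776, -0.0246 and -0.0451, so the numbers were not taken to pair them. Members at an unadjusted p under 0.05 numbered 3, but 0 with the rod covariate, 5 with GC and length corrected, 6 with that and the block, and 2 to 3 without single libraries. The split of genes at that p was 773 higher and 907 lower, but 813 and 763 with quantile normalization, 741 and 635 at a mean of at least 100, 381 and 981 without trend, 553 and 1002 with array weights, 276 and 176 with the rod covariate, 632 and 983 with the microglia covariate, 1101 and 546 with GC and length corrected, 1412 and 554 with the block added, 1227 and 579 with length corrected, 1030 and 998 with DESeq2, and, leaving out single libraries, 596 and 406 without sham replicate 3, 233 and 311 without sham replicate 2, 606 and 956 without sham replicate 1 and 436 and 751 without OHT replicate 1.

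Directions turned only in members whose groups overlapped. With the rod covariate, Syk was at -0.22 and Plcg2 at -0.34, and with quantile normalization Plcg2 was at -0.085 and Cd33 at -0.020. Vav1 was at 0.24 with array weights, 0.056 with the microglia covariate, 0.034 with DESeq2, 0.52 with GC and length corrected, with or without the replicate block, 0.43 with length corrected, and -0.23 to 0.32 without single libraries. Inpp5d was at 0.10 with array weights, 0.52 with GC and length corrected, with or without the replicate block, 0.38 with length corrected, and -0.18 to 0.095 without single libraries. Relative to Csf1r in place of the microglia list, Plcg2 was at 0.41, Vav1 at 0.19 and Inpp5d at 0.13. Relative to the summed list, Syk was at -0.31, Ptpn6 at -0.14 and Cd33 at -0.27. Without C1qc and Spi1, which were low only in OHT replicate 3, Syk was at -0.084 and Cd33 at -0.036, a choice made after seeing the data, like the corrections. Without single libraries these ratios ran from -0.15 to 0.17 for Syk, -0.26 to 0.25 for Plcg2, -0.74 to 0.33 for Vav1, -0.72 to 0.11 for Inpp5d and -0.19 to 0.20 for Cd33. The cause of these turns was not tested. Depth limits Hcst and Cd33 in the cultures, where each had under 10 reads per library.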
